A study of Mus musculus with 2 samples.

Results

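Chromatin accessibility was examined at 8 genes that restrain signalling by G protein-coupled receptors, namely Rgs1, Rgs2, Rgs3, Rgs4, Rgs5 and Rgs16, which encode regulators of G protein signalling (RGS), and Arrb1 and Arrb2, which encode the beta-arrestins. They were chosen by name from the 21951 protein-coding genes of GENCODE release M21 on GRCm38. For each gene, every ATAC-seq peak with its summit in the gene or within 50 kb of either end was taken, a region called the window of the gene here. These were 28 of the 58519 peaks of replicate 1 and 30 of the 64984 peaks of replicate 2. The cells were LβT2, an immortalized mouse line derived from pituitary gonadotropes, at passage 21. Both samples received GnRH in pulses of 2 nM, given every 2 h over 6 h and 45 min, which made 4 pulses, and were collected 45 min after the last pulse. ATAC-seq uses a transposase that inserts adapters into accessible DNA, so that a peak marks a stretch of open chromatin. Cells without GnRH were not analysed here, all values belong to this 1 condition (n = 2). The study describes the samples as independent, and the labels do not say whether they came from separate cultures.

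GnRH acts on gonadotropes through a receptor that couples mainly to G proteins of the Gq/11 class, and the pulsatile pattern of the hormone governs the output of LH and FSH. RGS proteins speed up GTP hydrolysis by G alpha subunits and thereby shorten the signal, and the R4 subfamily of small proteins, to which all 6 RGS genes listed above are commonly assigned, acts mainly on Gq and Gi. Beta-arrestins bind receptors phosphorylated by receptor kinases (GRKs), uncouple them from G proteins and lead them to clathrin-coated pits, whereas the mammalian GnRH receptor lacks the cytoplasmic tail through which most receptors recruit them.

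The label of the cells was checked against marker genes. A promoter peak is a peak whose summit lies within 1 kb of any annotated transcription start site (TSS) of the gene. Such a peak was present in both replicates at 3 of 5 gonadotrope genes, Lhb (LH beta subunit), Cga (the shared alpha subunit) and Gnrhr (the GnRH receptor), against 30.8% of all coding genes. Lhb had the highest of them, at 37.6 and 60.5 on the −log10 q scale of peak significance. Nr5a1, the gene of the gonadotrope factor SF1, had a promoter peak in replicate 2 alone, and Fshb had none. None of 6 genes of other pituitary lineages (Prl, Gh, Pomc, Tshb, Pou1f1 and Tbx19) had a promoter peak in either replicate.

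Each peak has a fold enrichment, the ratio of the tags at its summit to the background that the peak caller MACS2 expected, with 1 tag added to each, and a −log10 q, its significance after correction for multiple testing. The number of tags, solved from fold and checked against p, shows how much sequence lies behind a peak. The background was 3.05 tags in replicate 1 and 3.54 in replicate 2, the lowest peak held 10 and 11 tags, and the median peak held 14 and 16. MACS2 sets this background from the number of tags and a genome size, and the option given for these mouse data ("-g dm") is its preset for the fly. A smaller genome size gives a higher background and lower fold and −log10 q, so these values and the lowest number of tags depend on that setting as well as on depth. The absence of a peak at a gene therefore means only that none passed the caller under this background and depth. Intervals on tags are exact Poisson 95% intervals and cover counting error only.

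Promoter peaks were found at Rgs2, Rgs3 and Arrb2, that is, at 3 of the 8 genes in replicate 1, in replicate 2 and in both. Among all protein-coding genes, 32.3% had a promoter peak in replicate 1, 44.4% in replicate 2 and 30.8% in both, so the share of the 8 genes lay near the background. The 3 genes differed widely in the height of the peak, from near the top of all promoter peaks for Rgs2 to well below their median for Arrb2. When peaks needed a −log10 q of at least 10, only Rgs2 kept its promoter peak in replicate 1 and Rgs2 and Rgs3 in replicate 2, against 11.1% and 26.7% of coding genes. At the other end, no peak of any kind lay in the windows of 3 genes in replicate 1 (Rgs4, Rgs5 and Arrb1) and of 2 in replicate 2 (Rgs5 and Arrb1). An empty window was found for 16.7% of coding genes in replicate 1, for 9.77% in replicate 2 and for 7.49% in both. The maps of the 8 windows show this contrast between crowded and empty loci.

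**Figure D1:**
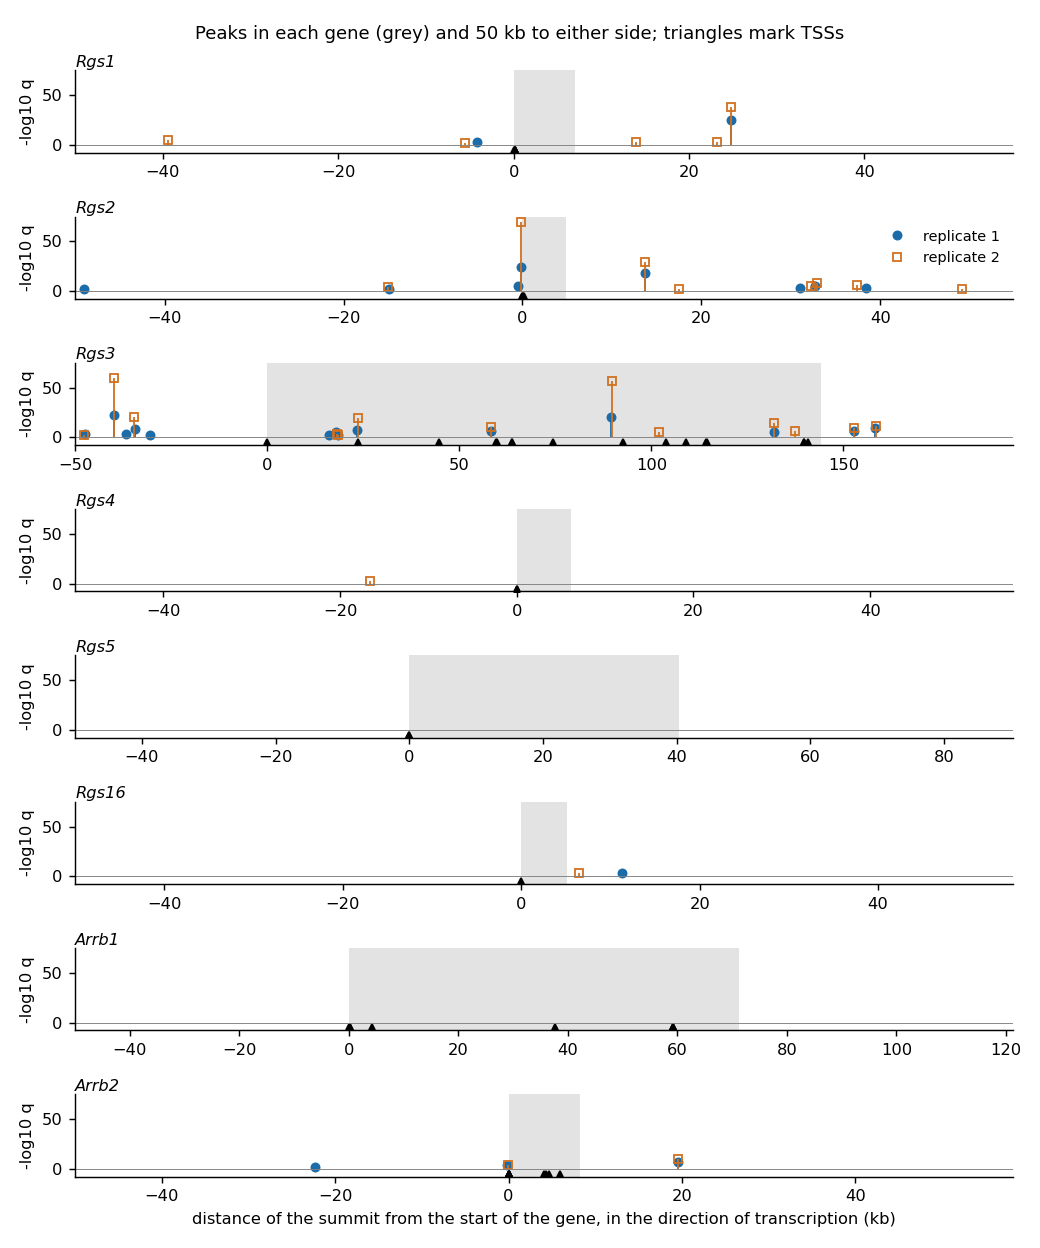
Peaks in the windows of the 8 genes, by distance of the summit from the start of the gene in kb (x axis) and −log10 q (y axis), for replicate 1 (filled circles) and replicate 2 (open squares). Rgs2 and Rgs3 hold 22 of the 28 peaks of replicate 1 and 21 of the 30 of replicate 2, and the windows of Rgs5 and Arrb1 are empty.

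Rgs2, which acts preferentially on Gq and is known as a gene of the early response to many stimuli, had the strongest promoter peak of the 8 genes. In replicate 1 it spanned chr1:144003961-144004370, with the summit 148 bp upstream of the outermost TSS, a fold enrichment of 9.38, a −log10 q of 23.9 and 37 tags (26.1 to 51.0). In replicate 2 it spanned chr1:144003961-144004568, with the summit 124 bp upstream, a fold enrichment of 17.2, a −log10 q of 69.8 and 77 tags (60.8 to 96.2). The summits were thus close together, while replicate 2 was the higher and the intervals of the tags did not overlap. Fold enrichment averaged 13.3 ± 5.53 (SD, n = 2). Among the coding genes with a promoter peak, the Rgs2 peak ranked at percentile 92.0 of 7085 in replicate 1 and 97.0 of 9740 in replicate 2. All 4 annotated start sites of Rgs2 lie within 277 bp of the summit of replicate 1 and within 253 bp of that of replicate 2, so the peak cannot be given to a single transcript. In replicate 1 a second, weaker summit lay 503 bp upstream (−log10 q 4.80, 16 tags), and the peak around it had no partner in replicate 2.

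The Rgs2 promoter is shown because it carries this peak. It is the RefSeq promoter on GRCm38.p6, 250 bases before and 50 after the RefSeq start, on the minus strand at chr1:144004100-144004399, and both summits fall inside it. The second sequence is the Rgs16 promoter, on the plus strand at chr1:153740103-153740402, shown as a GC-rich promoter of the same family that had no peak in either replicate. Capitals mark matches to the consensus letters searched, which are given after the base composition.
Rgs2 promoter: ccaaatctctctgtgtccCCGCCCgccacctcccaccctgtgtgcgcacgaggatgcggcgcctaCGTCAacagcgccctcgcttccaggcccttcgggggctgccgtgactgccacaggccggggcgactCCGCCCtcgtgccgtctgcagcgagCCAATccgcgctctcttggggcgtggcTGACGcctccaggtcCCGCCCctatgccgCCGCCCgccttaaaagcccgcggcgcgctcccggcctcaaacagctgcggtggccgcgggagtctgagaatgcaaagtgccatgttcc
Rgs16 promoter: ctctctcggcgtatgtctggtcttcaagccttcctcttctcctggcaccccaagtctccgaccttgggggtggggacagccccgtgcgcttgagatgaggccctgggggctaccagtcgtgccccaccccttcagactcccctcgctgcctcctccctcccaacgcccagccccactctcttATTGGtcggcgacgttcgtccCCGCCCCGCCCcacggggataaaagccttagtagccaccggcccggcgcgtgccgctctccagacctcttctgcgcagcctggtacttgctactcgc

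The Rgs2 locus held 8 peaks in each replicate none of them inside the gene beyond the promoter. Of these, 4 in each replicate overlapped a peak of the other replicate. Beyond the promoter, the strongest was a peak past the 3′ end of the gene, at chr1:143990368-143990649 in replicate 1 and chr1:143990069-143990834 in replicate 2, where the annotation places no TSS within 1 kb of the summit. Its summit lay 8.83 kb past the 3′ end in replicate 1 and 8.87 kb in replicate 2, only 48 bp apart. Fold enrichment there was 7.90 and 9.92, −log10 q 17.6 and 29.3, with 31 tags (21.1 to 44.0) and 44 tags (32.0 to 59.1). Among the peaks away from any TSS, 48988 in replicate 1 and 52213 in replicate 2, it ranked at percentile 98.0 and 98.5. The 50 bp around its summit occurred at 1 place in the genome in each replicate. The other peaks of the locus were weaker, with a −log10 q of at most 7.67, and a group of them 26.2 to 33.6 kb past the 3′ end lay in sequence found at 3 or more places in the genome.

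Rgs3, whose product acts on Gq and Gi and which has several promoters giving long and short proteins, had a promoter peak at 1 of its 16 annotated start sites, that of the protein-coding transcript Rgs3-203. This site lies inside the gene, and both summits fell in intron 3 of Rgs3-201, the transcript that begins at the 5′ end. In replicate 1 the peak spanned chr4:62582966-62584139, with the summit 495 bp upstream of the start site, a fold enrichment of 5.19, a −log10 q of 7.74 and 20 tags (12.2 to 30.9). In replicate 2 it spanned chr4:62582808-62584302, with the summit 201 bp upstream, a fold enrichment of 7.72, a −log10 q of 19.0 and 34 tags (23.5 to 47.5). The peak of replicate 1 lay within that of replicate 2, but the summits lay 294 bp apart and the intervals of the tags overlapped. Mean fold enrichment was 6.45 ± 1.79 (SD, n = 2), and the peak ranked at percentile 55.3 and 67.9 of the promoter peaks of coding genes, a typical height. The start of Rgs3-201 at the 5′ end of the gene had its nearest summit 16.1 kb away in replicate 1 and 18.2 kb away in replicate 2. A pair of start sites of other coding transcripts, at positions 62619520 and 62619582 of chromosome 4, lay just outside the limit, with a summit 1302 bp upstream of the first in replicate 1 (−log10 q 6.22) and 1428 bp in replicate 2 (−log10 q 10.0).

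The strongest peak inside the Rgs3 gene lay away from the start sites. Its summit was 89.6 kb into the gene in replicate 1 and 89.7 kb in replicate 2, in intron 18 of the 19 introns of Rgs3-201, and 3.10 and 3.05 kb from the nearest annotated start, that of a transcript annotated as a retained intron. In replicate 1 it spanned chr4:62649064-62649796, with a fold enrichment of 8.64, a −log10 q of 20.7 and 34 tags (23.5 to 47.5). In replicate 2 it spanned chr4:62648771-62649905, with a fold enrichment of 15.0, a −log10 q of 56.7 and 67 tags (51.9 to 85.1). This intronic peak exceeded the Rgs3 promoter peak in each replicate and stood at percentile 98.6 and 99.5 of the peaks away from any TSS. Its summits lay 50 bp apart, in sequence that occurs at 1 place in the genome.

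The sequences of the Rgs3-203 promoter peak, the Rgs3 intronic peak and the peak downstream of Rgs2 are shown because they are the Rgs3 promoter peak and the highest peak away from start sites at each locus. Each is 300 bases of GRCm38 around the midpoint of both summits, read in the direction of the gene. At the Rgs3-203 peak the summits lay 294 bp apart, so they fall at the ends of the stretch shown. At the Rgs3 intronic peak and downstream of Rgs2 they lay 50 and 48 bp apart. They are chr4:62583103-62583402 (plus strand), chr4:62649347-62649646 (plus strand) and chr1:143990338-143990637 (minus strand), with capitals as above.
Rgs3-203 promoter peak: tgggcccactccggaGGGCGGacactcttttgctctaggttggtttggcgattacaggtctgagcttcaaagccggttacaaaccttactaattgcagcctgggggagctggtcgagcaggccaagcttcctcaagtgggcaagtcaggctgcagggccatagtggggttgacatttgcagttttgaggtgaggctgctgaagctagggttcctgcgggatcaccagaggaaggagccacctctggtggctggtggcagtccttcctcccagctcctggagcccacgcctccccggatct
Rgs3 intron peak: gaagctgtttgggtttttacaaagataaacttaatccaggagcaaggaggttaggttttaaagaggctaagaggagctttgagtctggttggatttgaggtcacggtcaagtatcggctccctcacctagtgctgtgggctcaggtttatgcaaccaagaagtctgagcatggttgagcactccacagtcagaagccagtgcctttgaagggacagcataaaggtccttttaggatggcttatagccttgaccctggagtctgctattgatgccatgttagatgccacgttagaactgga
Rgs2 downstream peak: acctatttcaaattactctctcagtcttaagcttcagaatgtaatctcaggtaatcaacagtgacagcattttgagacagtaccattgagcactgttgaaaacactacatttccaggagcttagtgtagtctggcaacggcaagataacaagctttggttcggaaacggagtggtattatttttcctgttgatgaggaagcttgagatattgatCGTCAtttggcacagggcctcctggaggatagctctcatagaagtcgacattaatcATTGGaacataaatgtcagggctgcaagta

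The window of Rgs3 was the longest, at 244 kb, and held 14 peaks in replicate 1 and 13 in replicate 2, of which 10 in each had a partner. Inside the gene, 6 peaks of replicate 1 and 7 of replicate 2 were intronic. An intronic peak 132 kb into the gene was shared (−log10 q 5.50 and 14.3), and 2 further intronic peaks were seen in replicate 2 alone, 102 and 137 kb into the gene. The intronic peaks 16.1 to 18.6 kb into the gene lay in repeats, with summit sequence found at 448 to 932 places in the genome. In the upstream flank, the highest peak belonged to the promoter of Alad, which encodes an enzyme of haem synthesis (−log10 q 22.8 and 59.3). A peak at the start sites of Pole3 and 4933430I17Rik was weaker (−log10 q 8.54 and 19.98). All 3 coding genes with a TSS in this window besides Rgs3 thus had a promoter peak in each replicate.

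The remaining RGS genes had no promoter peak. Rgs1, best known from lymphocytes, had its nearest summit 4.14 kb from a start site in replicate 1 and 5.60 kb in replicate 2, and these were different peaks. Its window held 2 peaks in replicate 1 and 5 in replicate 2, and the 50 bp around each of these summits occurred at 5 or more places in the genome. The only peak of the window with a partner was a strong one (−log10 q 24.95 and 38.3) with its summit at the same base in both replicates, 17.9 kb past the 3′ end of Rgs1. It lies at the start of the pseudogene Rbm6-ps2, and the sequence around its summit occurred at 15 places. The Rgs1 window therefore held no peak with a single-copy summit.

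Rgs16 had 1 peak in its window in each replicate, and these were different. That of replicate 2 lay 6.52 kb from the Rgs16 start, past the 3′ end of the gene (−log10 q 3.57, 15 tags). It was below the median peak of its list, which stood at 4.19 on the same scale.

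Rgs4 and Rgs5, which lie next to each other on chromosome 1 with windows that share 54337 bp, were the emptiest RGS loci. Rgs5, known from pericytes and vascular smooth muscle, had no peak in its window of 140 kb in either replicate, and the nearest summits lay 109 kb and 107 kb from its start. Of 9313 windows of coding genes with a length within 20% of this one, 561 (6.02%) were empty in both replicates. Rgs4, known for its expression in neurons, had no peak in replicate 1, where the nearest summit was 120 kb away. In replicate 2 its window held a single weak peak 16.6 kb upstream of the start (−log10 q 2.99, 14 tags) with no partner in replicate 1.

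The beta-arrestin genes differed from each other. Arrb2 had a low promoter peak at the start sites near the 5′ end of the gene, 7 of its 11. In replicate 1 it spanned chr11:70432330-70432568, with the summit 229 bp upstream, a fold enrichment of 3.70, a −log10 q of 3.49 and 14 tags (7.65 to 23.5). In replicate 2 it spanned chr11:70432155-70432654, with the summit 29 bp upstream, a fold enrichment of 3.75, a −log10 q of 4.19 and 16 tags (9.15 to 26.0). These are the values of the median peak of each list, and the peak stood low among promoter peaks, at percentile 18.5 and 12.1. Mean fold enrichment was 3.73 ± 0.03 (SD, n = 2), the only mean of the 3 promoters with hardly any spread between replicates. In position the replicates were less alike: the overlap did not reach 50% of both peaks, and the summits lay more than 100 bp apart. The highest peak of the Arrb2 window lay at the promoter of Med11, which encodes a Mediator subunit (−log10 q 6.97 and 10.0). A peak at the promoter of Pelp1 was present in replicate 1 alone (−log10 q 2.31).

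Arrb1 had no peak in its window of 171 kb in either replicate, at none of its 9 start sites, in none of its introns and in neither flank. Of 4169 coding windows of similar length, 207 (4.97%) were empty in both replicates. The nearest summits lay just beyond the limit, 51.9 kb from the first start site in replicate 1 (−log10 q 2.88) and 51.7 kb in replicate 2 (−log10 q 13.4). The plot of tags at promoter summits sets the 3 genes with a promoter peak side by side.

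**Figure D2:**
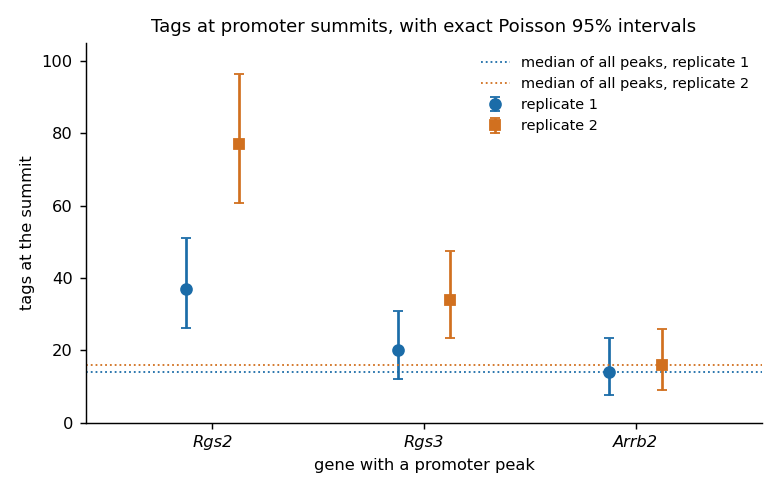
Tags at the promoter summit (y axis) of the 3 genes with a promoter peak, with exact Poisson 95% intervals, for replicate 1 (circles) and replicate 2 (squares); dotted lines mark the median over all peaks of each replicate, 14 and 16 tags. Rgs2 holds 37 and 77 tags, Rgs3 20 and 34, and Arrb2 14 and 16, at the median.

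Replicate 2 gave the higher fold enrichment at most promoters, not at these genes alone. Over the 6752 coding genes with a promoter peak in both replicates, the ratio of fold enrichment in replicate 2 to that in replicate 1 had a median of 1.45, with quartiles of 1.19 and 1.72. The ratio was 1.83 for Rgs2 (percentile 82.8), 1.49 for Rgs3 (percentile 54.4) and 1.01 for Arrb2 (percentile 11.1). The gap between replicates at Rgs2 and Rgs3 therefore ran in the direction of most of these promoters. Over the whole lists, the median fold enrichment was 3.70 in replicate 1 and 3.75 in replicate 2. The part that depth played in the gap at Rgs2 and Rgs3 was not tested.

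Since windows differ in length, peaks were also counted per 100 kb. Rgs2 had 7.63 peaks per 100 kb in each replicate, at percentile 96.3 and 94.3 of all coding windows. Rgs3 had 5.73 and 5.32 (percentile 92.7 and 86.4). The order of these genes depended on the setting, since the mean over both replicates was 5.61 for Rgs2 and 6.68 for Rgs3 with flanks of 100 kb, and 2.86 and 3.69 with a −log10 q of at least 5. Repeated sequence held 3 of the 8 Rgs2 summits in each replicate, and 5 of 14 and 3 of 13 Rgs3 summits. Over single-copy summits Rgs2 had 4.77 peaks per 100 kb in each replicate and Rgs3 had 3.69 and 4.10, for which no percentile was computed. The median coding window had 1.73 peaks per 100 kb in replicate 1 and 2.31 in replicate 2. Rgs1 was above it with 1.87 and 4.68, all in repeated sequence, and Arrb2 lay above it in replicate 1 (2.77) and below it in replicate 2 (1.85). Rgs16, Rgs4, Rgs5 and Arrb1 lay below it in each replicate. Arrb2 was thus the 1 gene of the 8 that changed its side of the median between replicates.

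**Figure D3:**
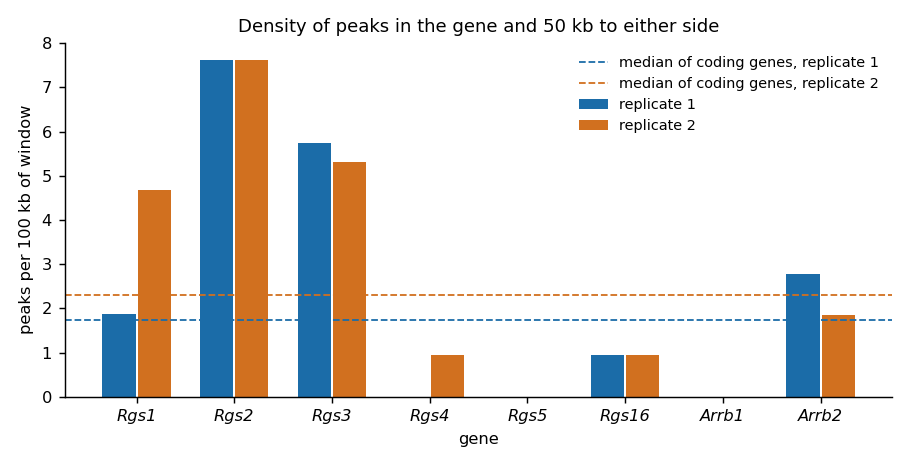
Peaks per 100 kb of window (y axis) for the 8 genes in replicate 1 and replicate 2; dashed lines mark the median over the windows of all coding genes, 1.73 and 2.31. Rgs2 and Rgs3 stand above both lines and Rgs4, Rgs5, Rgs16 and Arrb1 below them.

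By class, the 28 peaks of replicate 1 comprised 4 promoter peaks, 6 intronic peaks, 6 flanking peaks at a TSS of another gene and 12 other flanking peaks. The 30 peaks of replicate 2 comprised 3 promoter peaks, 7 intronic peaks, 4 flanking peaks at a TSS of another gene and 16 other flanking peaks. No summit lay in an exon outside the promoters. In each replicate 17 of the peaks overlapped a peak of the other by at least 1 bp, 60.7% in replicate 1 and 56.7% in replicate 2, against 59.1% and 51.6% over the whole lists. With a −log10 q of at least 5, 13 of 13 peaks of replicate 1 and 13 of 15 of replicate 2 had a partner, against 89.6% and 76.9% of such peaks over the whole lists. The unshared peaks reached at most 4.80 and 6.21, and shared peaks were also found below these values. Single-copy sequence at the summit was found for 18 of the 28 peaks and 19 of the 30. No such share is given here for the whole lists, so these counts have no background beside them.

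The promoters were then compared by base composition, since CpG-rich promoters are often open in many cell types. RefSeq promoter sequences of 300 bases were found for 5 of the 8 genes (6 sequences, 2 of them for Rgs3), but not for Rgs1, Arrb1 and Arrb2. Over 21255 promoters of coding genes, 29.8% in replicate 1 and 41.1% in replicate 2 had a summit within 1 kb of the RefSeq start. The share was 48.7% and 68.0% where the ratio of observed to expected CpG was at least 0.6, and 12.7% and 16.6% where it was lower. The Rgs2 promoter had a ratio of 0.922 and a GC content of 70.0%, the highest of the 6, and carried a peak. The promoters of Rgs16 (0.719) and Rgs4 (0.617) were also above 0.6 but carried none. The Rgs5 promoter (0.294) and both of Rgs3 (0.216 and 0.352) were below 0.6 and carried none at the RefSeq starts.

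**Figure D4:**
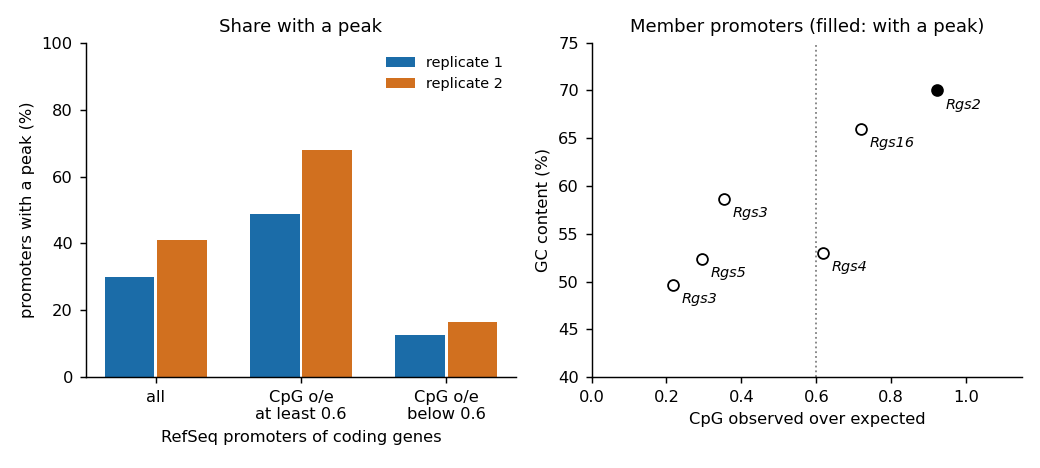
Left, share of RefSeq promoters of coding genes with a peak (y axis, %) by the ratio of observed to expected CpG, in replicate 1 and replicate 2. Right, GC content (y axis, %) against that ratio (x axis) for the 6 promoter sequences of 5 of the genes, filled where a peak was present; Rgs2 is the filled point, at 0.922, and Rgs16 and Rgs4 lie above the dotted line at 0.6 without a peak.

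Short consensus letters were searched on both strands: SP1 (GGGCGG), NFY (CCAAT), CRE (TGACGTCA) and its shorter core (TGACG, which every CRE match also holds), AP1 (TGACTCA), EGR1 (GCGTGGGCG or GCGGGGGCG), SF1 (AAGGTCA), the E-box (CACGTG), the TATA box (TATAAA) and a single exact form of the SRF box, so that other forms of it were not searched. In the Rgs2 promoter there were 4 matches to SP1, 2 to the CRE core and 1 to NFY. The Rgs16 promoter without a peak had 2 overlapping matches to SP1 and 1 to NFY. Matches to SP1 occurred in 46.2% of the 21255 promoters, to NFY in 38.2% and to the CRE core in 23.6%, so matches to each are common. Among the 6051 promoters with a peak in both replicates, as at Rgs2, the shares were higher, at 66.7%, 46.2% and 36.4%. The Rgs4 promoter had 2 matches to the CRE core, 1 to NFY and 1 to the TATA box (in 12.6% of promoters), and the Rgs5 promoter had 1 to NFY. Both Rgs3 promoters had a match to the TATA letters, and the one nearer the 3′ end also had 1 match to SP1. The TATA matches of Rgs3 began at −100 and −177 bases from the RefSeq starts, and that of Rgs4 at −31. No match to CRE (2.23% of promoters), AP1 (4.66%), EGR1 (4.62%), SF1 (4.08%), the E-box (7.84%) or that form of the SRF box (0.0941%) was present in any of the 6 sequences.

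In the peaks away from these promoters, matches were few. The Rgs3-203 promoter peak had 1 match to SP1, the peak downstream of Rgs2 had 1 to the CRE core and 1 to NFY, and the Rgs3 intronic peak had none. Windows of 300 bases, each centred on a single summit, were taken at 57966 summits of replicate 1 and 64448 of replicate 2, fewer than the lists hold. The Rgs3-203 stretch instead lies between summits 294 bp apart, so its values are not a like measure. SP1 letters occurred in 12.5% and 15.4% of these windows, the CRE core in 11.5% and 12.7% and NFY in 44.1% and 42.9%. GC content was 59.0% at the Rgs3-203 peak, 47.0% at the Rgs3 intronic peak and 41.3% downstream of Rgs2. The median over the same summit windows was 47.3% in replicate 1 and 48.0% in replicate 2. The strongest distal peaks at the 2 loci were thus not GC-rich, in contrast to the Rgs2 promoter. These matches describe the sequences and do not show binding.

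The 8 genes act together with other regulators, receptor kinases, G proteins and the endocytic coat, and these were counted by the same rule. Of 19 other RGS genes and partners, 6 had a promoter peak in both replicates and 12 in neither, and the share with both (31.6%) was near the 30.8% of all coding genes. None of the 4 other R4 genes (Rgs8, Rgs13, Rgs18 and Rgs21) had one in either replicate, and neither had any of the R12 genes (Rgs10, Rgs12 and Rgs14). Of the R7 genes counted with the genes of their partner proteins, Rgs7bp and Rgs9bp, 4 of 6 had a promoter peak in both replicates, and Rgs6 and Rgs11 had one in neither. The highest were at Rgs9bp, with a mean −log10 q of 36.9 ± 13.8 (SD, n = 2), and Rgs7, with 20.4 ± 15.7 (SD, n = 2). The summit at Rgs9bp also lies within 1 kb of a TSS of Ankrd27, so it cannot be given to Rgs9bp alone. In the RZ subfamily, Rgs19 (6.63 ± 1.58) and Rgs20 (6.36 ± 4.05) had a promoter peak in both replicates and Rgs17 in neither. Axin1, a scaffold of Wnt signalling with an RGS domain, had one in replicate 2 alone, and Axin2 and Rgs22 had none.

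Of the 6 receptor kinases, Grk4, Grk5 and Grk6 had a promoter peak in both replicates and Grk1, Grk2 and Grk3 in neither, against 30.8% of coding genes with one in both. The mean −log10 q was 29.4 ± 9.36 for Grk4, whose summit also lies within 1 kb of a TSS of Nop14, and 18.3 ± 5.13 for Grk5. The visual arrestins Sag and Arr3 had no promoter peak. Among 12 G alpha genes, 3 had a promoter peak in replicate 1 and 6 in replicate 2, against 32.3% and 44.4% of all coding genes. The highest means were at Gna12 (24.3 ± 14.9) and Gnaz (10.5 ± 0.739). The Gq/11 genes Gnaq and Gna11, targets of Rgs2, had a promoter peak in replicate 2 alone, with a −log10 q of 15.2 and 10.8. Gna14 also had one in replicate 2 alone, and it was weak (−log10 q 2.43). Gna15, Gnai1, Gnai2, Gnai3, Gnao1 and Gna13 had none.

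Among 10 genes of clathrin-mediated endocytosis, 7 had a promoter peak in replicate 1 and 9 in replicate 2, beside 3 of the 8 genes in each replicate and 32.3% and 44.4% of coding genes. The highest were at Ap2a1, an adaptor subunit (39.3 ± 15.6), and Dnm2, a dynamin (29.9 ± 0.868), and only Cltb had none in either replicate. Over the R4 genes alone, including those listed first, 2 of the 10 (Rgs2 and Rgs3) had a promoter peak in each replicate, against the same 32.3% and 44.4% of coding genes. Differences between lists, and between a list and all coding genes, were not tested.

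**Figure D5:**
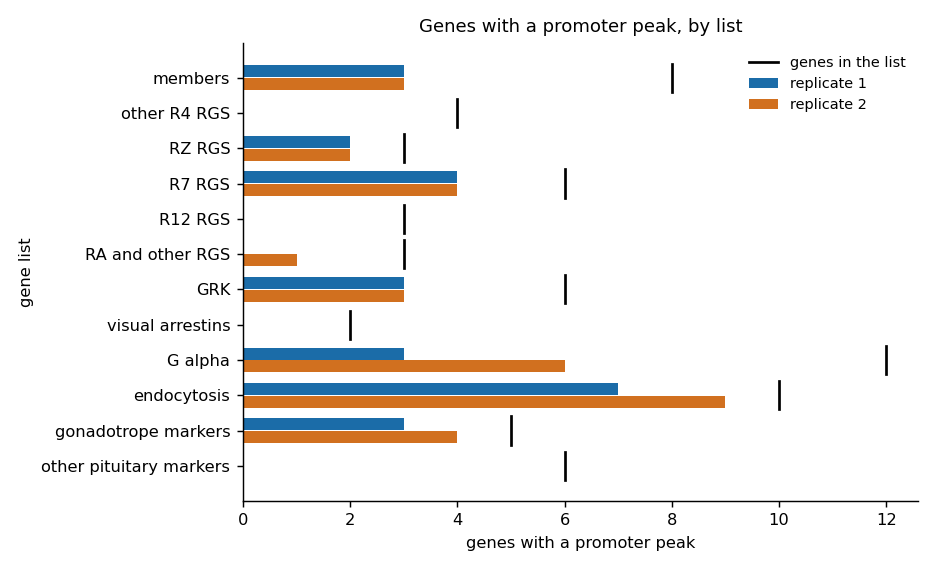
Number of genes with a promoter peak (x axis) in each gene list (y axis), for replicate 1 and replicate 2; black ticks mark the number of genes in the list. The 8 genes examined (members) have 3 in each replicate, the other R4, R12 and visual arrestin genes have none, and the endocytosis list has 7 and 9 of 10.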

How the data were processed

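ATAC-seq peak lists of 2 replicates were analysed as deposited. According to the methods, the authors mapped reads to GRCm38 with Bowtie2, removed duplicates and called peaks with MACS2 and the option "-g dm", the fly preset of genome size; no input control is named. Each replicate has its own deposited list. For each peak the authors deposited a score, the fold enrichment as a ratio to background, the −log10 of p and of q, and its position. Tags and background were solved from fold, which equals (tags + 1)/(background + 1), and the p they give was compared with the p of the authors. Summits were assigned with GENCODE M21, and sequences came from RefSeq. A summit was single-copy when the 50 bp around it matched the assembled chromosomes and the mitochondrial genome, on both strands, at no second place. Scripts ran under Python 3.11.15 with pandas 2.3.3, numpy 2.4.6, numba 0.67.0, scipy 1.17.1 and matplotlib 3.10.9, and the measures were tested on simulated data. No groups were compared and no test was run. All 8 genes are named, with the gene at the highest promoter peak of each window and, of each list, the 2 genes with the highest mean −log10 q and those without a promoter peak (at most 6). The peak of replicate 1 in the Rgs16 window is not reported here. Also named, after their values were seen, are Axin1, Gnaq, Gna11, Gna14, Grk6, Ankrd27, Nop14 and the other neighbours of the windows. The genes and lists were chosen with earlier results of these data known.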

Additional observations from a re-analysis of the deposited data

How the results depend on the processing

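Of 63 values recomputed under other settings, 42 stayed within the tolerance and 21 moved beyond it, where counts were allowed to change by up to 1.5 times and other values by less than 1 SD between the replicates. Promoters of 500 bp or 2 kb on either side, start sites of protein-coding transcripts, any overlap in place of the summit, and single-copy summits each left Rgs2, Rgs3 and Arrb2 as the genes with a promoter peak in each replicate. With a −log10 q of at least 5, Arrb2 was lost. With at least 10, 1 gene (Rgs2) remained in replicate 1 and in both, while Rgs3 also remained in replicate 2; the background then fell to 11.1% of coding genes in replicate 1, 26.7% in replicate 2 and 10.8% in both, and at 5 to 20.7%, 36.5% and 20.1%. The number of window peaks, 28 and 30, was 18 in replicate 1 with flanks of 20 kb, 46 and 48 with 100 kb, 13 and 15 with a −log10 q of at least 5, 5 and 11 with at least 10, and 18 and 19 over single-copy summits. The share with a partner was 42.9% and 40% when the overlap had to cover 50% of both peaks (35.8% and 32.2% over the whole lists), 28.6% and 26.7% with summits within 100 bp (30.7% and 27.6% over the whole lists, so that the windows then lay below them), and 63.2% in replicate 2 over single-copy summits. The genes below the median density numbered 4 over both replicates and 3 to 5 under other settings. The restriction to single-copy summits was not run for the densities of all coding genes. Leaving out a replicate gave a fold enrichment of 9.38 to 17.2 for Rgs2, 5.19 to 7.72 for Rgs3 and 3.70 to 3.75 for Arrb2, and 4 to 5 genes below the median density; with 2 replicates a mean always moves by less than 1 SD in this way, so the fold values are not counted above. No paired analysis was possible because the samples form 1 group. The causes of these shifts were not tested. The weakest peaks rest on 10 and 11 tags, a floor that depends on the background MACS2 was given, with the fly preset of genome size, as well as on depth.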
